A study of Rattus norvegicus with 15 samples.

Results

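The nuclear genes for mitochondrial ribosomal proteins, for the TIM and TOM protein import machinery and for the SLC25 carriers of the inner membrane were followed in rat adrenal medulla, from normal tissue through hyperplasia to pheochromocytoma. A gene was a member if its symbol began with Mrpl, Mrps, Timm (other than Timmdc1), Tomm or Slc25 and if it was listed in at least 1 of the 3 deposited comparisons. This gave 87 of 8621 listed genes: 54 for the mitochondrial ribosome (33 of the large and 21 of the small subunit by name), 9 for protein import and 24 carriers.

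RNA-seq was performed on medullary tissue of 15 Sprague-Dawley rats ("Sprague-Dawely" in the labels), 5 in each group, after macrodissection of the cortex. WT rats were wildtype and 7 to 9.5 months old, with tissue labelled as normal adrenal medulla. HYP samples were hyperplastic medullas of MENX rats aged 4 to 5 months, and PCC samples were pheochromocytomas of MENX rats aged 7 to 9.5 months. The study counts both smaller and advanced tumors, told apart by the weight of the gland, in its PCC group, and the labels do not tell which sample is which. MENX rats carry a germline frameshift in Cdkn1b, the gene for the cell cycle inhibitor p27, in all their cells, so HYP and WT samples differed in age as well as in genotype.

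Mitochondria make a handful of respiratory chain subunits on ribosomes of their own, whose protein components are all encoded in the nucleus, translated in the cytosol and imported. Import runs through the TOM complex of the outer membrane, the small TIM chaperones of the space between the membranes and the TIM complexes of the inner membrane. SLC25 carriers then pass metabolites such as ADP, ATP, phosphate, amino acids and dicarboxylates across the inner membrane. Chromaffin cells make catecholamines and the surrounding cortex makes steroids, a synthesis that itself takes place partly in mitochondria.

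Each deposited table held only genes that had passed an adjusted p of 0.05 in the authors' own comparison, so all counts below are conditional on that choice and the calls are not independent evidence of a change. Of the members, 81 were listed between PCC and WT, 55 between HYP and WT and 14 between PCC and HYP. Counts in all 15 samples were at hand for 55. Reads on genes ranged from 16315018 to 23831269 per sample. Expression is given as CPM (reads of a gene relative to all reads on genes, after TMM scaling), and groups were compared with edgeR, a count model fitted to all listed genes. Cell type markers moved with the groups. A level is the median over genes of CPM divided by the WT mean. For 10 of 17 adrenal cortex genes it was 0.606 to 1.34 in WT, 0.283 to 0.771 in HYP and 0.0244 to 0.365 in PCC. The level of 10 of 15 chromaffin genes went the other way. It was 0.267 to 1.54 in WT, 1.71 to 2.71 in HYP and 3.68 to 5.00 in PCC. Levels hold only genes with counts in all samples, so markers that were not listed are left out. Chga, Chgb and Pnmt were not listed, and Gata2 and Gata3 were listed only for HYP vs. WT, where both rose. The study itself measured less Pnmt in its advanced tumors. The level of 4 of 6 endothelial markers fell in the order WT, HYP and PCC. It was 0.879 to 1.06 in WT, 0.495 to 0.833 in HYP and 0.264 to 0.575 in PCC. Of these 4, Vwf rose from WT to PCC (edgeR log2 fold change 1.48, adjusted p = 0.0023), while Tek, Emcn and Kdr fell. The groups of 4 Schwann and sustentacular markers overlapped, with means of 0.963, 2.11 and 1.69. Of the adipocyte, leukocyte and erythroid markers, 2 of 8, 1 of 7 and 0 of 7 were listed against WT in PCC, and the 3 listed fell. WT replicate 5 had both the highest cortex level and the lowest chromaffin level of the WT samples. In such bulk tissue, fewer cells of a type and less RNA per cell cannot be told apart.

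The mitochondrial ribosome was lower in PCC than in WT in nearly its whole listed membership. Of 52 ribosomal protein genes, 41 fell and none rose at an adjusted p under 0.05, where 38.5% of all 7001 genes tested fell and 46.7% rose. The fitted log2 fold change was below 0 for all 52 genes, against 49.3% of all genes, with a median of -0.65 and a range from -1.89 to -0.27, while the median of all genes was 0.44. In 28 of the 52 genes all PCC values lay under the lowest WT value, against 27.4% of all genes. The listed genes made up 62.96% of the 81 ribosomal protein symbols of the family in RefSeq, where 40.89% of all genes tested by the authors were listed. Since the genes that were not listed have no values here, the direction of the rest of the family is not known.

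**Figure D1:**
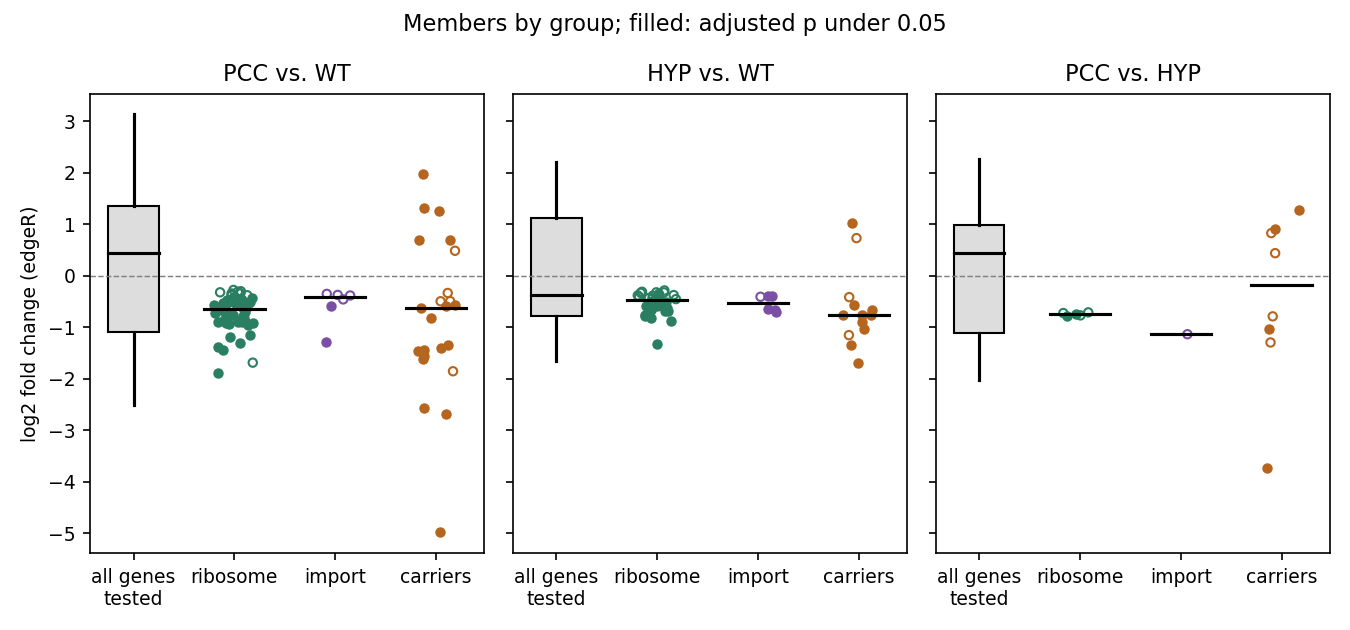
Log2 fold changes (edgeR) of the members in each comparison by group, beside all genes tested. Each point is a gene, filled points passed an adjusted p of 0.05, lines are medians, and the box for all genes spans the quartiles with whiskers to the 5th and 95th percentile. For PCC vs. WT all 52 ribosome genes and all 6 import genes lie below 0, while the 23 carriers spread from -4.98 to 1.97.

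The scaling of the libraries bears on this count. Scaling to the library totals instead of TMM moved the median of all genes for PCC vs. WT by 0.29 on the log2 scale, and 51 of the 52 ribosome genes still lay below 0, with a median of -0.35 and 18 genes called. Scaling to the summed counts of the listed genes moved all genes by 0.50. With it 37 of the 52 genes lay below 0, the median was -0.14 and 7 genes were called. With the authors' size factors all 52 genes lay below 0, with a median of -0.70. TMM was computed over the listed genes, and the size of the changes and the number of calls depended on the scale chosen. Without PCC replicate 2 or 3, 27 genes were called. Cortex markers fell in the same samples, 10 of 13 listed at a median log2 fold change of -2.41, as did 3 of 4 listed endothelial markers while 1 rose, and their part in the ribosome values was not tested.

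Members of the small subunit were lower by more than those of the large subunit. Of 20 small subunit genes 18 fell, at a median log2 fold change of -0.88. Of 32 large subunit genes 23 fell, with a median of -0.61, where 38.5% of all genes tested fell. This difference can also be read as a ratio within each sample, in which the scale of the library cancels. The level of 17 small subunit genes divided by that of 18 large subunit genes was 1.03, 1.05, 0.982, 1.03 and 0.985 in the WT samples, 0.962, 1.00, 0.966, 0.900 and 0.881 in HYP, and 0.745, 0.835, 0.776, 0.817 and 0.872 in PCC. All PCC ratios lay below all HYP and WT ratios. The subunits are taken from the gene names, and the names do not hold in every case. The product of Mrps18a is known to sit in the large subunit, and that of Mrps36 is better known as a part of the 2-oxoglutarate dehydrogenase complex. Both genes were kept with the small subunit in these counts, medians and ratios, which were not computed without them.

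Over the 35 ribosome genes with counts in all samples, the level averaged 0.995 ± 0.058 in WT, 0.742 ± 0.097 in HYP and 0.617 ± 0.074 in PCC (mean ± SD, n = 5). WT samples ranged from 0.920 to 1.08 and did not overlap with HYP (0.634 to 0.844) or PCC (0.554 to 0.708), whereas HYP and PCC overlapped. The means followed the order WT, HYP, PCC in 33 of the 35 genes, and in the other 2, Mrpl43 and mrpl9, HYP was lowest. Of the 35 genes 34 were listed against WT in both comparisons, so their distance from WT was favored by the listing and is not separate evidence. For the step from HYP to PCC, the fit of all 15 samples put 29 of the 35 below 0, against 48.0% of all genes. With library totals as the scale 25 lay below 0.

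**Figure D2:**
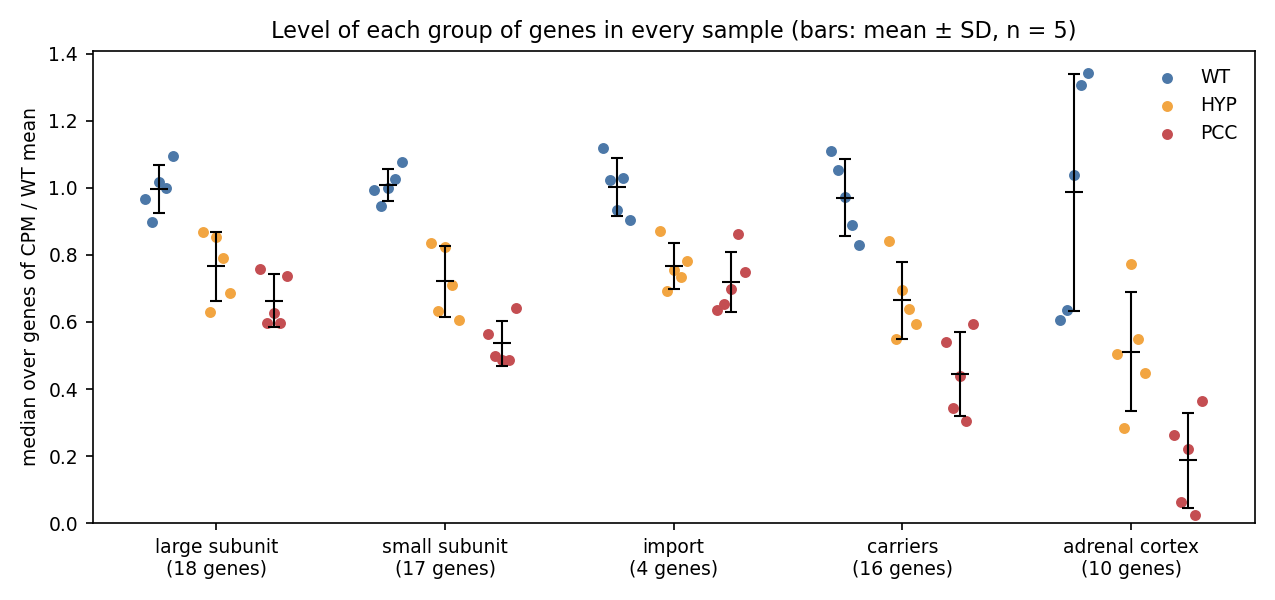
Level of each group of genes in every sample, as the median over its genes of CPM divided by the WT mean, with bars for mean ± SD (n = 5 per group). The small subunit falls from a mean of 1.01 in WT to 0.536 in PCC, the large subunit from 0.996 to 0.663 and the carriers from 0.971 to 0.444, beside a fall of the adrenal cortex markers from 0.986 to 0.188.

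Mrps12, on chr1:86920680-86923575 (Rn06, minus strand), encodes a small subunit protein close to the decoding site and had the lowest fold change of the ribosome genes. It measured 53.1, 65.7, 70.2, 114 and 121 CPM in WT, 54.8, 17.5, 33.1, 37.7 and 33.0 in HYP and 19.7, 15.8, 21.4, 18.4 and 40.7 in PCC. All PCC samples were below all WT samples, and PCC replicate 5 was the highest of its group. The log2 fold change for PCC vs. WT was -1.89 ± 0.30 (SE), 3.70-fold lower, at an adjusted p of 0.000873. Mrps12 lies 16 bases from Sars2, the mitochondrial seryl-tRNA synthetase gene, on the opposite strand. Sars2 was 233 ± 180 CPM in WT and 57.4 ± 30.0 CPM in PCC and fell by 2.01 on the log2 scale at an adjusted p of 0.0110.

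Mrps25, a small subunit protein, was between 46.2 and 60.04 CPM in WT, between 26.6 and 37.8 CPM in HYP and at most 28.2 CPM in PCC, where it averaged 19.4 ± 5.34 CPM (SD, n = 5). It fell 2.73-fold from WT to PCC (log2 fold change -1.45 ± 0.19, adjusted p = 0.000402), and its WT samples lay above all others. Mrps9, another small subunit protein, measured 102, 102, 101, 96.7 and 111 CPM in WT, 64.0, 76.1, 89.0, 73.4 and 59.2 in HYP, and 57.0, 44.2, 40.5, 41.1 and 46.5 in PCC. None of its groups overlapped. Its log2 fold change of -1.19 ± 0.13 for PCC vs. WT had the lowest adjusted p of the 5 named ribosome genes (0.000157). Mrps6 (25.03 ± 3.11 to 9.74 ± 2.98 CPM, log2 fold change -1.39) and Mrps18a (101 ± 13.5 to 41.8 ± 12.5 CPM, log2 fold change -1.30) fell as well, at adjusted p of 0.000845 and 0.000617. Mrps18a shares part of its span with Rsph9 on the opposite strand, and how reads of the overlap were assigned is not known. Mrps18b, a relative of Mrps18a, fell less, by 0.56 on the log2 scale (adjusted p = 0.0147), with overlapping groups.

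**Figure D3:**
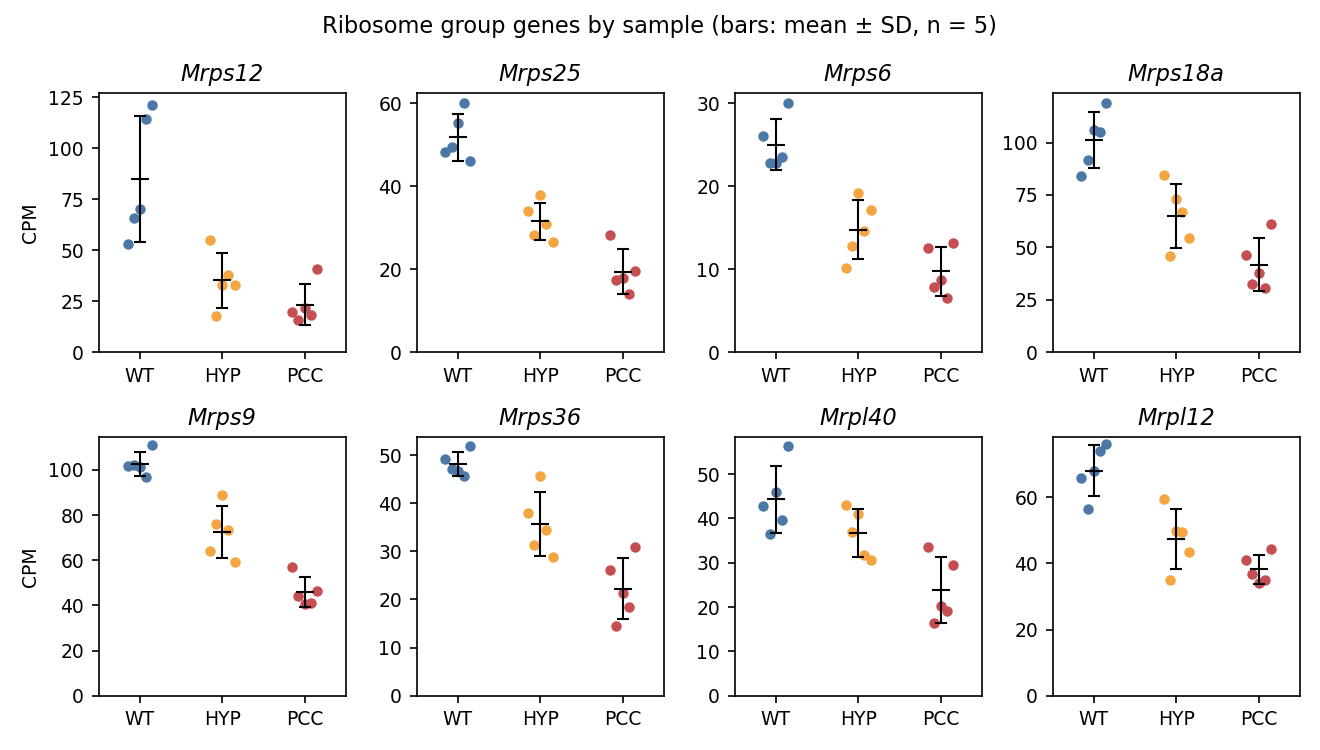
CPM of single ribosome genes in the 5 samples of each group, with bars for mean ± SD (axes from 0). In Mrps25 and Mrps9 all WT samples lie above all HYP and PCC samples, and in Mrps12 PCC replicate 5 stands above the other PCC samples at 40.7 CPM.

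The 11 ribosome genes that did not pass the test for PCC vs. WT had log2 fold changes between -1.69 and -0.27. The one at -1.69 was Mrpl30, chosen here after its values were seen. It measured 20.4, 12.6, 11.5, 10.02 and 12.4 CPM in WT against 4.78, 5.44, 0.468, 10.1 and 0.430 in PCC, so that the PCC samples were spread over more than 9 CPM (adjusted p = 0.106). Mrpl30 overlaps Mitd1 on the opposite strand over most of its span.

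Promoter sequences are shown because many ribosome genes were lower together. The 250 bases before the start of each gene (RefSeq, GRCr8, protein-coding genes) were searched on both strands for 4 motifs, and 70 of the 87 members (80.5%) had a promoter in the table. GCGCA and GCGC with any base N between them, the motif of the mitochondrial biogenesis factor NRF1, were found in 8 members (11.4%) and in 5.44% of all promoters. The letters CCGGAAG, bound by ETS factors such as GABP, were found in 11 members (15.7%) and in 9.52% of all, with no member holding both. The E-box CACGTG was in 5 members (7.14%, all promoters 6.38%), and the ERR motif TCAAGGTCA in none (all promoters 0.305%). Of the 8 members with the NRF1 letters 7 were ribosome genes, 1 was an import gene and none was a carrier. The 70 members with a promoter were 42 ribosome genes, 9 import genes and 19 carriers. The 60 bases around the motif are printed 5′ to 3′ on the strand of the gene, with the motif in capitals. The capitals of Mrpl30 and mrpl9 hold GCGCCTGCGC, which is the reverse complement of a match. These sequences lie at chr4:12197443-12197502 (Tomm7, plus strand), chr1:169575720-169575779 (Mrpl17, minus), chr9:47621064-47621123 (Mrpl30, plus), chr17:55260564-55260623 (Mrpl32, plus), chr9:88554893-88554952 (Mrpl44, plus), chr10:82804869-82804928 (Mrpl45, plus), chr20:2842946-2843005 (Mrps18b, plus) and chr2:184771007-184771066 (mrpl9, plus).
Tomm7: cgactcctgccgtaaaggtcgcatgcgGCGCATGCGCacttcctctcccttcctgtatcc
Mrpl17: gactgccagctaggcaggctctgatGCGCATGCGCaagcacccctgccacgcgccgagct
Mrpl30: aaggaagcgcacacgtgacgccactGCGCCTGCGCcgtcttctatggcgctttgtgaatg
Mrpl32: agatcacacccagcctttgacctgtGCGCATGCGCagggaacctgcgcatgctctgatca
Mrpl44: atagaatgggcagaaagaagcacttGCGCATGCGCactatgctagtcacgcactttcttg
Mrpl45: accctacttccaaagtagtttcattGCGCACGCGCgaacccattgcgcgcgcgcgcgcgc
Mrps18b: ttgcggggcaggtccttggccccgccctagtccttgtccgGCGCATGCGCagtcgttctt
mrpl9: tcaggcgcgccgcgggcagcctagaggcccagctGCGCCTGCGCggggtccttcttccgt

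None of these 7 ribosome genes was among the 5 with the largest falls that passed the test, of which Mrps12 had no promoter in the table. Shares by group are not given, since fewer than 80% of the ribosome genes and carriers had a promoter in the table. Mrpl17, Mrpl45, Mrpl30 and mrpl9 did not pass the test for PCC vs. WT, with log2 fold changes of -0.37, -0.31, -1.69 and -0.32. Mrpl32, Mrpl44, Mrps18b and Tomm7 fell by 0.80, 0.50, 0.56 and 0.58 on the log2 scale.

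The ribosome genes were also lower at the HYP stage. Of 36 genes listed for HYP vs. WT, 17 fell and none rose, where 32.5% of all 4108 genes tested fell and 39.5% rose. All 36 fitted log2 fold changes were below 0 (52.1% of all genes), with a median of -0.47 beside a median of -0.37 over all genes. By subunit, 10 of 18 small and 7 of 18 large subunit genes fell. With the summed listed counts as the scale, which moved all genes by 0.46, 18 of the 36 lay below 0 and none was called. With library totals 7 were called, and without HYP replicate 5, 10 were.

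Mrps12 again had the lowest value, with a log2 fold change of -1.33 ± 0.30 (adjusted p = 0.0116) and HYP replicate 1 inside the WT range. Mrpl14, a large subunit protein, measured 39.3, 37.5, 35.6, 36.7 and 35.1 CPM in WT and 29.6, 14.1, 17.5, 22.4 and 20.9 CPM in HYP, with no overlap. It fell 1.83-fold (log2 fold change -0.87 ± 0.18, adjusted p = 0.00796). In PCC it was 20.2 ± 4.79 CPM, beside 20.9 ± 5.82 CPM in HYP. Mrps6 fell by 0.81 on the log2 scale (adjusted p = 0.0137), from 22.8 to 30.0 CPM in WT to 10.1 to 19.2 CPM in HYP.

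Between HYP and PCC only 5 ribosome genes were listed, 4.938% of the family's symbols where 19.25% of all genes tested by the authors were listed. Mrps25 and Mrps9 fell, by 0.79 (adjusted p = 0.0459) and 0.75 (adjusted p = 0.0246) on the log2 scale, where 22.6% of all 3148 genes tested fell. Neither was called with library totals or the summed listed counts as the scale, or without PCC replicate 2 or 3 or HYP replicate 2, 3 or 4, and Mrps25 also lost its call without any other single sample but PCC replicate 1. Mrps36, Mrps18a and Mrpl40 were at -0.77, -0.72 and -0.71 without passing (adjusted p between 0.0599 and 0.0834). In a fit of all 15 samples, which also covers genes listed only against WT, 3 of 35 ribosome genes fell from HYP to PCC, where 13.6% of 5268 genes fell. These were Mrps25, Mrps9 and Mrps36, the last chosen after its values were seen. Without HYP replicate 3 or 4 or PCC replicate 2, 3 or 4 this fit called 1 gene, and without PCC replicate 1 or 5 it called 5. The median over the 35 was -0.18, and 29 lay below 0 (48.0% of all genes). Scaling to the library totals gave 25 of 35 below 0.

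Of 27 Timm and Tomm symbols of protein import in RefSeq, 22.22% were listed for PCC vs. WT, where 40.89% of all genes tested by the authors were listed. The same share was listed for HYP vs. WT, close to the 24.40% of all genes. All 6 genes listed for PCC vs. WT were below 0, at a median log2 fold change of -0.42, and 2 fell (38.5% of all genes), or 1 without PCC replicate 2 or 3 or WT replicate 2. With the authors' size factors the median was -0.47 and with the library totals -0.13, with all 6 genes below 0 in both. With the summed listed counts it was 0.08, with 4 of 6 genes above 0. The size of the change in this group, and with this last scale its direction, thus depended on the scaling.

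Timm8a1, a small TIM chaperone that guides membrane proteins to the inner membrane, had the lowest fold change. It measured 21.1, 19.8, 16.4, 16.3 and 15.8 CPM in WT, 19.1, 13.7, 13.3, 12.4 and 19.4 in HYP and 9.66, 4.71, 12.0, 2.89 and 8.42 in PCC. Every PCC sample was below every WT and HYP sample, and WT and HYP overlapped. It fell 2.45-fold from WT to PCC (log2 fold change -1.29 ± 0.34, adjusted p = 0.0131). From HYP to PCC its log2 fold change was -1.13 ± 0.36 in the pairwise fit (adjusted p = 0.0728) and -1.01 ± 0.30 in the fit of all samples (adjusted p = 0.0442), a call that was kept without WT replicate 5 or PCC replicate 1, 3 or 5 and lost without any other single sample. Timm8a1 was not listed for HYP vs. WT.

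Of 6 import genes listed for HYP vs. WT 5 fell, Tomm40, Timm13, Tomm7, Tomm22 and Tomm6, where 32.5% of all genes fell. All 6 lay below 0 with a median of -0.53. Tomm40, the channel of the outer membrane, was 52.0 ± 7.15 CPM in WT and 33.0 ± 9.05 CPM in HYP and fell 1.63-fold (adjusted p = 0.0313). Timm13, a small TIM chaperone, fell from 55.4 ± 4.51 to 36.5 ± 10.4 CPM (1.58-fold, adjusted p = 0.0362). Tomm7, a small TOM subunit that has the NRF1 letters in the promoter printed above, measured 52.2, 55.7, 40.8, 47.3 and 39.3 CPM in WT, 41.4, 22.8, 25.5, 34.9 and 31.0 in HYP and 28.1, 30.3, 33.3, 39.2 and 30.7 in PCC. It fell against WT in HYP (log2 fold change -0.65 ± 0.18, adjusted p = 0.0288) and in PCC (-0.58 ± 0.17, adjusted p = 0.0228). The call of Tomm7 in PCC was lost without PCC replicate 2 or 3 or WT replicate 1 or 2. The 5 calls for HYP vs. WT rest on single libraries. None was called without HYP replicate 2, HYP replicate 3 or WT replicate 4, 1 was called without HYP replicate 5 or WT replicate 1, 2 or 3, and 3 were called without HYP replicate 4. None was called with library totals as the scale, and with the summed listed counts 3 of the 6 genes lay below 0.

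The carriers split in both directions. Of 23 carriers listed for PCC vs. WT, 13 fell and 5 rose, where 38.5% of all genes fell and 46.7% rose, at a median log2 fold change of -0.63 in a range from -4.98 to 1.97. With library totals 8 fell, with the summed listed counts 6 fell, and without WT replicate 3 or 4 only 3 rose. The carriers were listed about as often as other genes: 43.40% of 53 Slc25 symbols against 40.89% of all genes tested by the authors. At the HYP stage, 9 of 13 carriers fell against WT and 1 rose (median -0.77), beside 32.5% and 39.5% of all genes. With library totals or the summed listed counts as the scale, 2 fell and 2 rose. Without HYP replicate 2 or 5 or WT replicate 1 there were 4 falls, and without HYP replicate 3 or 4 or WT replicate 2 there were 5. Of 8 carriers listed between HYP and PCC, 2 fell and 2 rose, where 22.6% of all genes fell and 21.8% rose.

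Slc25a30, on chr15:57813356-57834173 (Rn06, minus strand), is an uncoupling-protein-like carrier also known as kidney mitochondrial carrier protein. It measured 1052, 1146, 1513, 1479 and 727 CPM in WT, 299, 430.1, 770.1, 505 and 418 in HYP and 24.1, 22.2, 39.1, 16.4 and 91.4 in PCC. No PCC sample reached any other sample, and HYP replicate 3 was above WT replicate 5. It fell 31.6-fold from WT to PCC (log2 fold change -4.98 ± 0.52, adjusted p = 0.000127), 2.53-fold from WT to HYP (-1.34 ± 0.27, adjusted p = 0.00683) and 13.3-fold from HYP to PCC (-3.73 ± 0.50, adjusted p = 0.00269). Leaving out single samples gave log2 fold changes for PCC vs. WT between -5.57 (without PCC replicate 5) and -4.78, for HYP to PCC the value was -4.35 without PCC replicate 5, and the call for PCC vs. WT held under each alternative, with adjusted p between 2.22e-27 and 0.00175.

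Per transcript length, Slc25a30 was the most abundant listed carrier in WT at 607 ± 195 FPKM (fragments relative to gene length and library size), with Slc25a3 next at 550 ± 91.0. Their ranges overlapped. In PCC it was at 23.5 FPKM, and Slc25a4 (275 ± 49.9) and Slc25a3 (252 ± 46.8) led. The level of the cortex markers fell with Slc25a30 across the groups. PCC replicate 5, at 91.4 CPM, had the highest cortex level of the PCC samples (0.365) and PCC replicate 4, at 16.4 CPM, the lowest (0.0244). In HYP replicate 3 had the highest value of both, but the other samples were ordered differently: replicate 1 had the lowest Slc25a30 and a cortex level of 0.505, and replicate 2 had the lowest cortex level (0.283). In WT the order differed as well, since replicate 5 had the lowest Slc25a30 and the highest cortex level (1.34). The part of cortex tissue in this result was not tested.

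**Figure D4:**
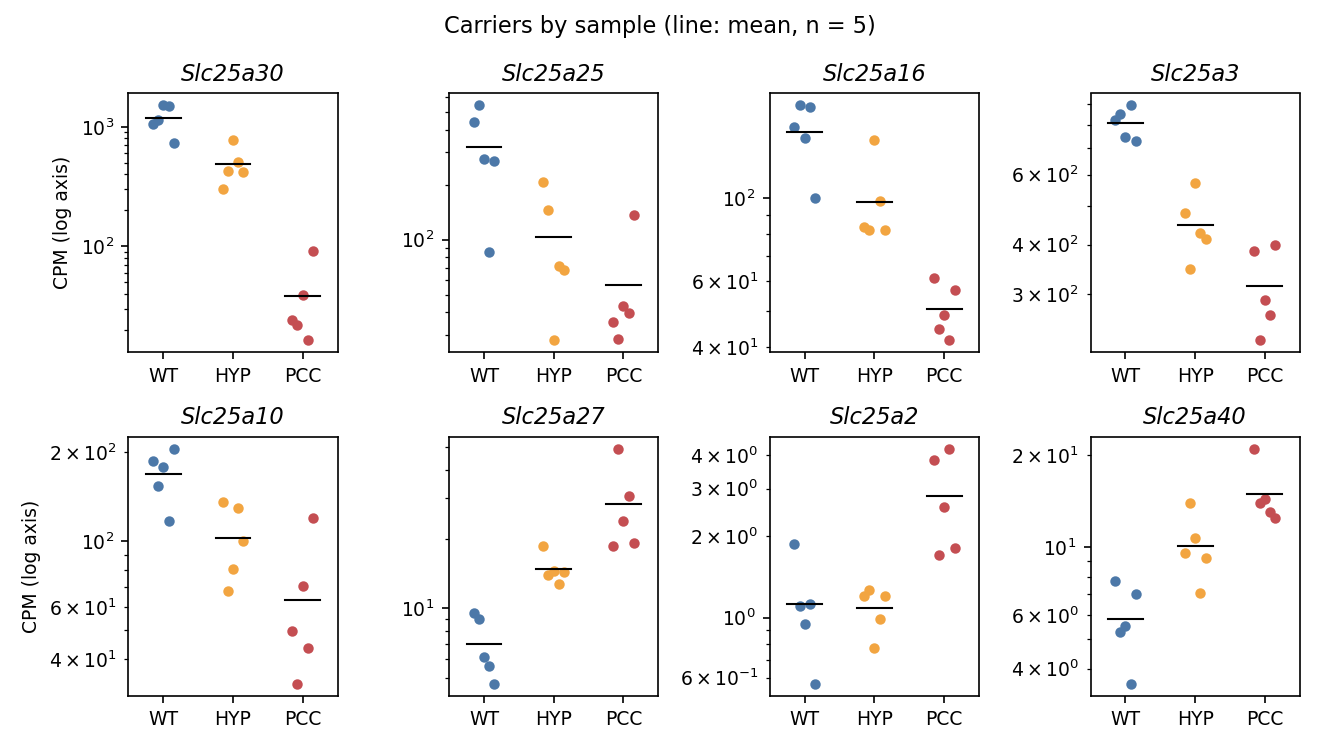
CPM of single carriers in the 5 samples of each group on a log axis, with a line at the group mean. Slc25a30 falls from a mean of 1183 CPM in WT to 484 in HYP and 38.6 in PCC, while Slc25a27 rises from 7.01 to 28.3.

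Its relative Slc25a27, the brain uncoupling protein UCP4 on chr9:19880473-19907458, rose along the same stages. The values were 9.52, 9.02, 6.17, 5.63 and 4.69 CPM in WT, 18.6, 13.9, 14.5, 12.8 and 14.4 in HYP and 18.5, 49.3, 23.8, 30.7 and 19.2 in PCC. WT lay below all other samples, and HYP and PCC overlapped. It rose 3.93-fold from WT to PCC (log2 fold change 1.97 ± 0.34, adjusted p = 0.00148) and 2.03-fold from WT to HYP (1.02 ± 0.23, adjusted p = 0.0104). Between HYP and PCC it was at 0.83 ± 0.27 in the pairwise fit (adjusted p = 0.0790) and at 0.99 ± 0.29 in the fit of all samples (adjusted p = 0.0403). The fit of all samples called 2 carriers higher. It called none without HYP replicate 3 or 4 or PCC replicate 4. Without WT replicate 3, HYP replicate 2 or 5 or PCC replicate 2 or 3 it called 1. Of 15 chromaffin markers 10 were listed for PCC vs. WT, and all 10 rose, at a median of 1.97. Their part in the rise of Slc25a27 was not tested. Slc25a14, the other relative of this kind, was not a listed gene.

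The carriers of ADP, ATP and phosphate moved apart. Slc25a3, the phosphate carrier, measured 824, 853, 745, 896 and 727 CPM in WT, 481, 347, 571, 429 and 414 in HYP and 385, 230.0, 290.4, 267 and 399 in PCC. WT samples were above all others, and it fell 2.64-fold to PCC (log2 fold change -1.40 ± 0.20, adjusted p = 0.000597) and 1.87-fold to HYP (-0.91 ± 0.16, adjusted p = 0.0037). Slc25a5, the ADP/ATP carrier of proliferating tissues (ANT2), fell 1.54-fold to PCC, from 144 ± 12.9 to 95.1 ± 10.9 CPM (adjusted p = 0.00424), and 1.49-fold to HYP (adjusted p = 0.0147). Slc25a4, the ADP/ATP carrier of heart and muscle (ANT1), measured 217, 233, 211, 178 and 136 CPM in WT, 222, 212, 192, 245 and 243 in HYP and 351, 364, 277, 363 and 260.3 in PCC. PCC lay above all other samples, and it rose 1.61-fold against WT (log2 fold change 0.69 ± 0.21, adjusted p = 0.0268). Scaled to the summed listed counts or to library totals, Slc25a5 was no longer called against WT. Slc25a4 lost its call without PCC replicate 2 or WT replicate 3 or 4.

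The ratio of both ADP/ATP carriers does not depend on scaling. Slc25a4 divided by Slc25a5, in FPKM, was 1.58, 1.61, 1.28, 1.04 and 0.881 in WT, 2.12, 2.49, 1.51, 2.18 and 2.22 in HYP and 3.24, 4.201, 2.98, 3.23 and 2.35 in PCC. The means were 1.28 ± 0.32, 2.10 ± 0.36 and 3.20 ± 0.67 (SD, n = 5 each), and only HYP replicate 3 lay within the WT range and PCC replicate 5 within the HYP range.

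**Figure D5:**
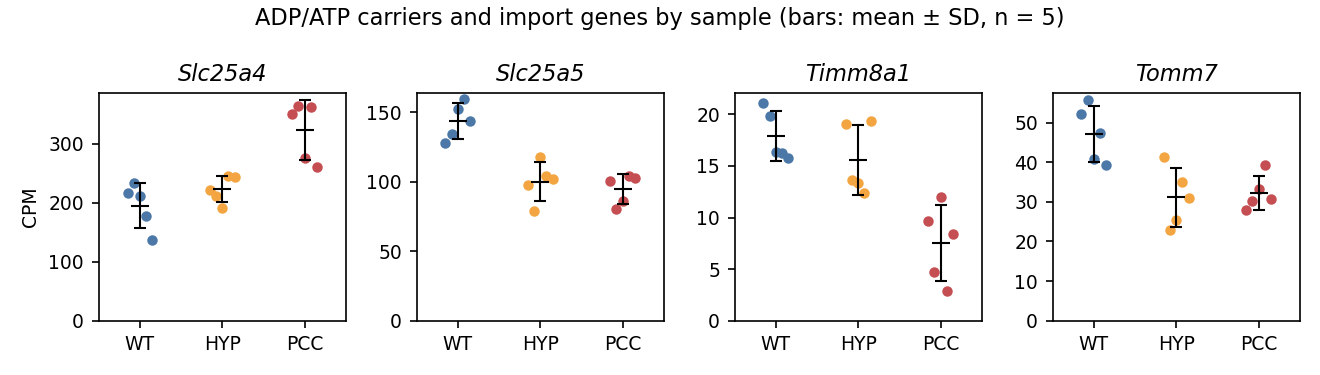
CPM of both ADP/ATP carriers and of the import genes Timm8a1 and Tomm7 in the 5 samples of each group, with bars for mean ± SD (axes from 0). Slc25a4 rises from 195 to 323 CPM from WT to PCC while Slc25a5 falls from 144 to 95.1.

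Among carriers of nucleotides, cofactors and amino acids most were lower in PCC. Slc25a25, a calcium-dependent ATP-Mg/phosphate carrier, measured 439, 543, 276, 85.6 and 268 CPM in WT, 207, 145, 28.0, 71.7 and 67.9 in HYP and 35.5, 28.6, 43.1, 39.8 and 136 in PCC. It varied widely within each group, the groups overlapped, and it fell 5.90-fold to PCC (adjusted p = 0.00467) and 3.24-fold to HYP (adjusted p = 0.0485). Without PCC replicate 5 its log2 fold change to PCC was -3.17 in place of -2.56, and the call in HYP was lost without any single sample but HYP replicate 1 or WT replicate 4 or 5, and with library totals or the summed listed counts. Slc25a16, a candidate coenzyme A carrier, measured 154, 177, 144, 174 and 100.2 CPM in WT, 83.7, 82.0, 142, 98.1 and 82.3 in HYP and 61.2, 44.8, 48.6, 41.7 and 56.9 in PCC. All PCC samples were below all others, with a fall of 3.05-fold against WT (adjusted p = 0.000299) and 2.05-fold against HYP (adjusted p = 0.0139). Slc25a18, a glutamate carrier, was low throughout, at 1.88 ± 0.821 CPM in WT and 0.295 ± 0.316 CPM in PCC with 1 PCC sample at 0 (log2 fold change -2.69 ± 0.72, adjusted p = 0.0147, and -3.34 without PCC replicate 5).

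Slc25a37 (mitoferrin 1), an iron importer, fell 2.76-fold from WT to PCC (24.0 ± 8.15 to 8.98 ± 3.40 CPM, adjusted p = 0.00564), and its relative Slc25a28 (mitoferrin 2) fell 1.48-fold (94.5 ± 11.0 to 65.7 ± 12.6 CPM, adjusted p = 0.0269). Slc25a40, linked to the import of glutathione, rose 2.51-fold from 5.84 ± 1.63 to 15.0 ± 3.44 CPM (adjusted p = 0.00224). Slc25a43, a carrier of unsettled substrate, fell 2.95-fold (17.0 ± 6.94 to 5.83 ± 3.74 CPM, adjusted p = 0.0340). The call of Slc25a43 was lost without PCC replicate 2 or 3 or WT replicate 1, 3 or 5 and that of Slc25a28 without PCC replicate 2, 3 or 4 or WT replicate 1, 2 or 3, and both were lost with library totals or the summed listed counts as the scale. Slc25a46, an outer membrane protein with a part in mitochondrial shape, rose 1.61-fold, with 26.6 to 41.3 CPM in WT and 43.4 to 64.1 CPM in PCC (adjusted p = 0.00585). Slc25a40 overlaps Rundc3b over 10113 bases and Slc25a46 overlaps Sap130 over 182 bases, both on opposite strands. How reads of these overlaps were assigned is not known.

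The ornithine carriers were higher in PCC than in HYP. Slc25a15, the ornithine carrier of the urea cycle, measured 7.67, 6.59, 7.35, 8.77 and 8.23 CPM in HYP and 14.5, 9.76, 17.8, 22.0 and 13.8 CPM in PCC, with no overlap (log2 fold change 0.91 ± 0.22, adjusted p = 0.0316). It was not listed against WT. Slc25a2, the second ornithine carrier, was at 1.09 ± 0.203 CPM in HYP and 2.82 ± 1.15 CPM in PCC (log2 fold change 1.27 ± 0.34, adjusted p = 0.0410), with 1.13 ± 0.475 CPM in WT. These are low counts, and neither was called without any 1 of the HYP samples or without PCC replicate 3 or 4.

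In HYP vs. WT, Slc25a34, a carrier of unsettled substrate, fell 2.04-fold from 4.02 ± 0.779 to 2.05 ± 0.615 CPM (adjusted p = 0.0169), a call lost without HYP replicate 2 and with library totals or the summed listed counts as the scale. Slc25a33 and Timm17a were listed for PCC vs. WT and did not pass (log2 fold changes 0.49 and -0.35, adjusted p = 0.0556 and 0.126).

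The genes around these machines were followed in lists of related function, which were chosen with earlier results of these data known. Over all genes 40.89% of those tested by the authors were listed for PCC vs. WT, and of the genes tested here 38.5% fell and 46.7% rose, while of the 143 genes of these lists 51 were listed, 35 fell and 6 rose. The other ribosomal proteins, named differently, had 3 of 6 listed for PCC vs. WT, and all 3 fell (Gadd45gip1, Ict1 and Dap3). Of 13 translation factors 3 were listed and fell, among them the elongation factor Tufm, from 189 ± 43.7 to 72.0 ± 17.95 CPM (log2 fold change -1.41, adjusted p = 0.00047), and its exchange factor Tsfm (-0.70, adjusted p = 0.0199). Of 20 genes for mitochondrial tRNA charging 9 were listed, of which 6 fell and 2 rose. Gatb, a subunit of the amidotransferase that makes glutaminyl-tRNA, fell by 1.64 on the log2 scale (adjusted p = 9.9e-05), while Qrsl1, the catalytic subunit of the same enzyme, rose by 1.25 (adjusted p = 0.00142). Gatb was 148 ± 19.4 CPM in WT and 48.5 ± 8.31 CPM in PCC, and Qrsl1 4.64 ± 0.899 and 11.3 ± 1.33 CPM. Aars2 rose as well (0.69, adjusted p = 0.0276).

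Ribosome assembly had 5 of 22 genes listed, with 3 lower, led by Eral1 (-0.95) and Mtg1 (-0.94), and Dhx30 higher (0.38). Import partners had 12 of 24 listed, of which 10 fell and 1 rose. Hspd1, the chaperonin that folds imported proteins, was 3073 ± 1315 CPM in WT and 756 ± 469 CPM in PCC and fell by 2.04 on the log2 scale (adjusted p = 0.00844), Dnajc15 fell by 1.31 and Immp1l rose by 0.54. Other carriers and channels had 8 of 19 listed, with 7 lower, among them Sfxn4 (-1.54) and Vdac1 (-1.002), and Micu3 higher (0.68). Of the regulators of mitochondrial biogenesis 2 of 12 were listed, Esrrg higher (1.06) and Pprc1 lower (-0.69). In mitochondrial DNA expression 2 of 14 were listed and Tfam fell (-0.57), and of 13 subunits encoded in mitochondrial DNA 7 were listed at a median of -0.93, of which Mt-nd4 fell (-1.30).

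At the HYP stage, 22 genes of these lists were listed against WT, of which 9 fell and 1 rose, where 32.5% and 39.5% of all genes did. Those that fell were Tufm (log2 fold change -0.80), Gatb (-1.08), Fars2 (-0.54), Mtg1 (-0.53), Grpel1 (-0.65), Vdac1 (-0.55), Mpc2 (-0.41), Mtch1 (-0.95) and Esrra (-0.86), and Esrrg rose (0.78). Between HYP and PCC 17 were listed, and 4 fell and 1 rose, where 22.6% and 21.8% of all genes did. Tufm (-0.74), Gatb (-0.68), Gfer (-0.78) and Sfxn4 (-1.14) fell and Qrsl1 rose (0.72). Genes named for these 2 comparisons were chosen after their values were seen.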

How the data were processed

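RNA-seq libraries were made from poly-T selected mRNA with the NEBNext Ultra kit. Per the labels and the study's methods, the authors mapped clean paired-end reads to the rat genome Rn06 with HISAT2 2.0.5, counted them per gene with featureCounts 1.5.0-p3 and compared groups pairwise with DESeq2. Each group of 5 samples came from 5 animals. The strand setting is not given in the sources used here. Each table the authors deposited holds, for genes under an adjusted p-value of 0.05, whole-number read counts, counts divided by size factors (signal) and FPKM. The deposited log2 fold changes were not used, and the deposited p-values served only to recover how many genes the authors had tested (18057 between HYP and WT, 18790 between PCC and WT, 17454 between PCC and HYP).

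Counts were fitted with edgeR 4.0.16 in R 4.3.3 (TMM, filterByExpr, glmQLFit, glmQLFTest) over all genes of a table. The filter left 4108 of 4406, 7001 of 7683 and 3148 of 3360 genes in the same order, and no listed member was removed from any table. Adjusted p are Benjamini-Hochberg values over the genes the authors had tested, which makes them upper bounds for listed genes, and an adjusted p under 0.05 was called. A further fit took all 15 samples over the 5492 genes with counts in each. SE is the log2 fold change divided by the square root of F. Library totals were recovered from count, FPKM and length. The fits were tested on simulated counts.

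Members, lists and the rule for named genes were chosen with earlier results of these data known. Named were Slc25a30, the largest called changes of each group with at least 1 CPM in 1 group (5 ribosome, 4 import and 6 carrier genes per direction for PCC vs. WT, and 3, 2 and 4 for the other comparisons), related gene pairs, and the 2 largest called changes per direction of each neighbouring list. Symbols were matched without regard to case. Alternatives were DESeq2 1.42.0, other scalings, other filters, a replicate block, 1 fit of all samples and leaving out each sample.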

Additional observations from a re-analysis of the deposited data

Results flagged for a closer look

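In 90 groups of 5 samples from the genes named in the report, 4 had a highest or lowest sample far from the others by the gap to the next sample over the range of the group, where chance gives about 1 in 20. Slc25a25 measured 136.1 CPM in PCC replicate 5, and the next PCC sample was at 43.13. Without that sample its log2 fold change for PCC vs. WT was -3.17 in place of -2.56. Mrps12 measured 40.73 CPM in the same sample, with the next at 21.43, and its log2 fold change was -2.18 without it. PCC replicate 5 also had the highest cortex marker level of the PCC samples (0.365), and the part of this in both genes was not tested. Slc25a16 measured 142.3 CPM in HYP replicate 3 with the next at 98.15, and that sample had the highest cortex marker level in HYP (0.771). Slc25a40 measured 20.96 CPM in PCC replicate 1 with the next at 14.41.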

How the results depend on the processing

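No ribosome or import gene was called higher under any alternative run, and over 50 single-gene results, 736 of 891 alternative values kept direction and side of the threshold, 130 lost the call, 22 gained one and 3 turned. The counts depended on the scaling. With the summed listed counts, falls numbered 7 of 52 (ribosome), 0 (import) and 6 (carriers) for PCC vs. WT and 0, 0 and 2 for HYP vs. WT with 2 carriers higher, 0 ribosome genes fell for PCC vs. HYP and 0 import genes in the fit of all samples. The import median for PCC vs. WT turned to 0.0787, Timm17a to 0.14, and for HYP vs. WT Mrps18b to 0.0751 and Slc25a28 to 0.0434. With library totals, falls were 18, 1 and 8 for PCC vs. WT and 7, 0 and 2 for HYP vs. WT with 2 carriers higher, 0 ribosome genes fell for PCC vs. HYP and 0 import genes in the fit of all samples, and the carrier median for PCC vs. HYP turned to 0.0308. For PCC vs. WT the median of all genes moved by 0.50 with the summed listed counts and by 0.29 with library totals, on the log2 scale. What made the scales differ was not tested. DESeq2 called 6 import genes lower for PCC vs. WT, 27 ribosome genes lower and 2 carriers higher for HYP vs. WT, and 5 ribosome, 1 import and 4 carrier genes lower for PCC vs. HYP. The authors' size factors gave 4 import genes for PCC vs. WT and 1 ribosome gene for PCC vs. HYP. With at least 10 counts in every sample, 1 import gene fell for PCC vs. WT, 0 import genes and 4 carriers fell and 2 carriers rose for HYP vs. WT, and 1 ribosome gene fell for PCC vs. HYP. In 1 fit of all samples, 1 import gene fell from WT to HYP and 1 from HYP to PCC.

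Same-numbered samples of different groups did not deviate together, with r from -0.277 to 0.294 over 15 pairs, 8 above 0.1. With the replicate number as a block, 1 import gene fell from WT to PCC and 2 from WT to HYP, and between HYP and PCC 0 ribosome genes fell, 0 carriers rose and 1 fell, and 1 carrier rose in the fit of all samples.

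Leaving out 1 sample gave 27 (without PCC replicate 2 or 3) to 44 ribosome, 1 to 3 import and 10 to 13 carrier falls and 3 (without WT replicate 3 or 4) to 5 carrier rises for PCC vs. WT. It gave 10 (without HYP replicate 5) to 18, 0 to 5 and 4 to 11 falls for HYP vs. WT, the lowest carrier count without HYP replicate 2 or 5 or WT replicate 1. For PCC vs. HYP it gave 0 to 3 ribosome falls and 0 to 2 carrier rises, and in the fit of all samples 1 to 5 ribosome falls, 0 to 1 import falls and 0 to 3 carrier rises. Low counts limit Slc25a18 and Slc25a2.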

Other observations

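Further carriers, chosen after their values were seen, were listed for PCC vs. WT. Slc25a10, the dicarboxylate carrier, fell from 168 ± 33.8 CPM in WT to 63.3 ± 34.4 CPM in PCC (log2 fold change -1.44 ± 0.31, edgeR adjusted p = 0.00502), with 103 ± 29.8 CPM in HYP, and PCC replicate 5 lay inside the WT range. It lies 3147 bases from Mrpl12, a large subunit gene on the same strand, which fell from 68.1 ± 7.68 to 38.3 ± 4.34 CPM (log2 fold change -0.86 ± 0.13, adjusted p = 0.000787). Slc25a38, which brings glycine into mitochondria for heme synthesis, measured 28.5 ± 7.97 CPM in WT, 17.4 ± 4.29 at HYP and 16.6 ± 2.99 in tumors and fell against WT in both (adjusted p = 0.0178 in PCC and 0.0331 in HYP). Slc25a21, the oxodicarboxylate carrier, ranged from 15.1 to 61.5 CPM in WT and from 0.662 to 16.3 CPM in PCC and did not pass the test (log2 fold change -1.85 ± 0.71, adjusted p = 0.0712).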
